A study of Mus musculus with 26 samples.

Results

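The RPE/choroid is the sheet at the back of the eye that holds the retinal pigment epithelium (RPE) and, below it, the choroid, a vascular bed with endothelial cells (ECs), stromal cells, melanocytes, Schwann cells and immune cells. RNAseq of this tissue was compared here between mice with and without Ihh in their ECs. The samples were 6 of the 26 in the study, 3 libraries of Ihh iΔEC/iΔEC mice and 3 libraries of Ihh+/+ mice, with 1 mouse per library. Every mouse carried Cdh5-PAC-CreERT2, a Cre recombinase that the promoter of the EC gene Cdh5 drives and that tamoxifen activates, and every mouse received tamoxifen. The Ihh iΔEC/iΔEC mice also carried loxP sites in both copies of Ihh, and the Ihh+/+ mice were littermates without them. The background was C57BL/6J, the mice were 6 months old, and the tissue was taken 12 weeks after tamoxifen. Both sexes were used in the study. The dissection discarded the front of the eye, removed the neural retina and cut away the tissue outside the globe.

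Hedgehog (HH) ligands are secreted proteins that bind the receptor PTCH1 on neighbouring cells. Binding releases SMO from inhibition, and GLI transcription factors then switch on target genes, among them Gli1, Ptch1 and Hhip, which report the activity of the pathway and in part feed back on it. Indian hedgehog (Ihh) is best known from cartilage, where it paces the growth plate. In the choroid, its transcript marks ECs of the capillary layer next to the RPE, and Gli1 marks the stromal cells around them.

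The table of this comparison gave 1 mean FPKM per genotype for each of 17623 genes. A gene was counted when it reached 1 FPKM in the higher genotype and was above 0 in both, which 11392 genes did after 24 short noncoding RNAs had been set apart. A gene is called lower or higher here when the 2 means differed at least 2-fold. By this rule 82 genes, 0.72% of those counted, were lower in Ihh iΔEC/iΔEC mice and 118 genes, 1.04%, were higher. The values of single libraries were not analysed here, so no ratio below has an error, an n-based interval or a test, and none can be set against the spread between mice. The median log2 ratio over all counted genes was -0.04, and the middle 90% of genes lay between -0.43 and 0.33. The rule cut through a continuum: Crispld1 was just inside with a ratio of 0.499, Foxd2os just outside with 0.5002, and on the other side Plk3 (2.008) was inside and Cd300lf (1.997) outside.

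**Figure D1:**
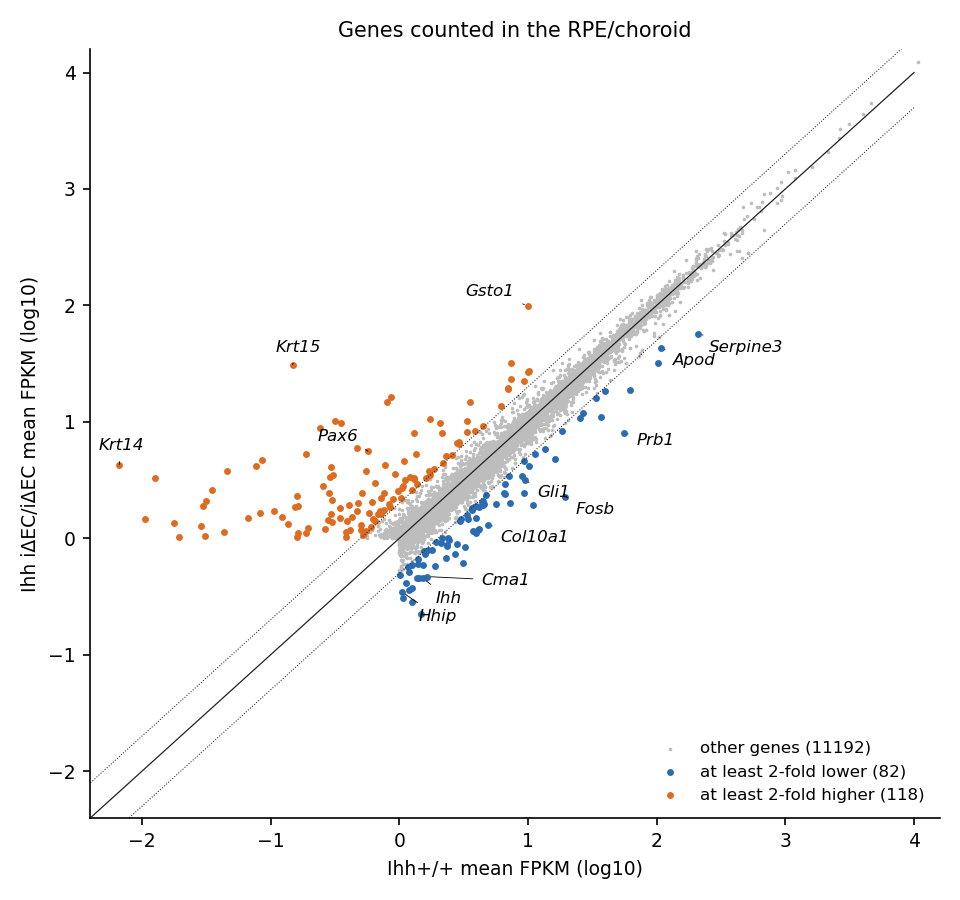
Mean FPKM of each counted gene in Ihh+/+ (x axis) and Ihh iΔEC/iΔEC (y axis) RPE/choroid, both as log10. The solid line marks equal means and the dotted lines 2-fold differences. The 82 lower genes reach up to 211.0 FPKM in Ihh+/+ tissue (Serpine3), while many of the 118 higher genes were near 0 FPKM in Ihh+/+ tissue.

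The deleted gene itself was lower. Ihh had a mean of 1.53 FPKM in Ihh+/+ tissue and 0.454 FPKM in Ihh iΔEC/iΔEC tissue, a 3.37-fold difference (log2 ratio -1.75). The gene lies on chromosome 1 at 74945315-74951672 (GRCm38, minus strand). FPKM covers the whole transcript, so this value does not say whether the exons between the loxP sites were still transcribed. In the single cells of 3-month-old wild-type mice, sorted for a nuclear dye and against a dead-cell dye, Ihh UMIs were concentrated in ECs, at 1.71 per 10,000 UMIs (exact Poisson 95% interval 1.63-1.79, counting error only) against at most 0.124 in any other cell type. Within ECs the level was 3.28 in cluster 2, 0.781 in cluster 3 and 0 in cluster 4, so the transcript divided the EC clusters. Both single-cell libraries gave a similar EC level, 1.82 in B6129PF1/J and 1.6 in C57BL/6J. Of the other ligand genes and the genes for ligand release, only Disp1 and Scube3 reached the floor, with log2 ratios of -0.13 and 0.14.

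General EC markers were slightly lower, with Cdh5 at 10.7 and 13.1 FPKM in Ihh iΔEC/iΔEC and Ihh+/+ tissue, Kdr at 12.3 and 15.3, and Plvap, a component of the fenestrae of choroidal capillaries, at 101.3 and 122.1. None of the 12 EC markers was lower 2-fold, 11 of the 12 had a ratio under 1, and their median log2 ratio was -0.26. Set against the median of the genes enriched in ECs, Ihh was 3.05-fold lower.

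Among the transcriptional readouts of the pathway, Gli1 and Hhip were lower and Ptch1 differed less. Gli1, the GLI factor that is itself a target, was at 9.40 FPKM in Ihh+/+ and 3.15 FPKM in Ihh iΔEC/iΔEC tissue (2.99-fold). Hhip, a decoy that binds HH ligands at the cell surface, stood at 1.05 and 0.346 FPKM (3.04-fold). Ptch1 stood at 7.69 and 4.98 FPKM, a log2 ratio of -0.63 that did not reach 2-fold. The single cells show where these transcripts are made. Gli1 was at 0.262 per 10,000 UMIs in stromal cells (0.234-0.292) and at most 0.0252 elsewhere, whereas Ptch1 was at 0.445 in stromal cells but also at 0.434 in Schwann cells and 0.209 in RPE. Hhip was at 0.0756 in stromal cells, with the highest level, 0.32, in cluster 7. Relative to the median of all stromal-enriched genes, Gli1 was 2.4-fold and Hhip 2.44-fold lower.

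Most of the other pathway genes differed by less than 2-fold. The table listed 38 HH genes. Of these, 29 were counted, 4 were lower (Ihh, Hhip, Gli1, Foxd2) and 2 higher (Foxf1, Cdkn1a), with a median log2 ratio of -0.13. The transducer Smo was at 13 FPKM in Ihh+/+ and 10.9 FPKM in Ihh iΔEC/iΔEC tissue, and Gli2, the main activator GLI, at 2.06 and 1.92 FPKM. Sufu (-0.13), Kif7 (0.10), Evc (-0.34) and Evc2 (-0.28), which hold or relay GLI factors at the primary cilium, differed by these log2 ratios. The coreceptors Boc and Cdon differed by a log2 ratio of at most 0.05. The ligand-binding protein genes went apart: Gas1, a coreceptor gene, was higher in Ihh iΔEC/iΔEC tissue (28.1 against 17.8 FPKM, log2 ratio 0.66), and Gpc3, a glypican that competes for HH ligands, was lower (69.2 against 113.0 FPKM, -0.71), both short of 2-fold. Genes of the forkhead family, known as HH targets in gut, kidney and face mesenchyme, were mixed. Foxd2 was lower (1.85 against 3.80 FPKM), Foxf2 (-0.60) and Foxd1 (-0.47) were lower by less than 2-fold, and Foxf1 was higher (1.72 against 0.707 FPKM). The log2 ratios of the other counted genes of the target list lay between -0.64 (Ccnd2, a cyclin gene) and 0.30 (Sfrp1, a Wnt inhibitor gene). Foxf1 UMIs were mostly in ECs (0.309 per 10,000), Foxd2 UMIs in stromal cells (0.195) and smooth muscle cells (0.14).

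**Figure D2:**
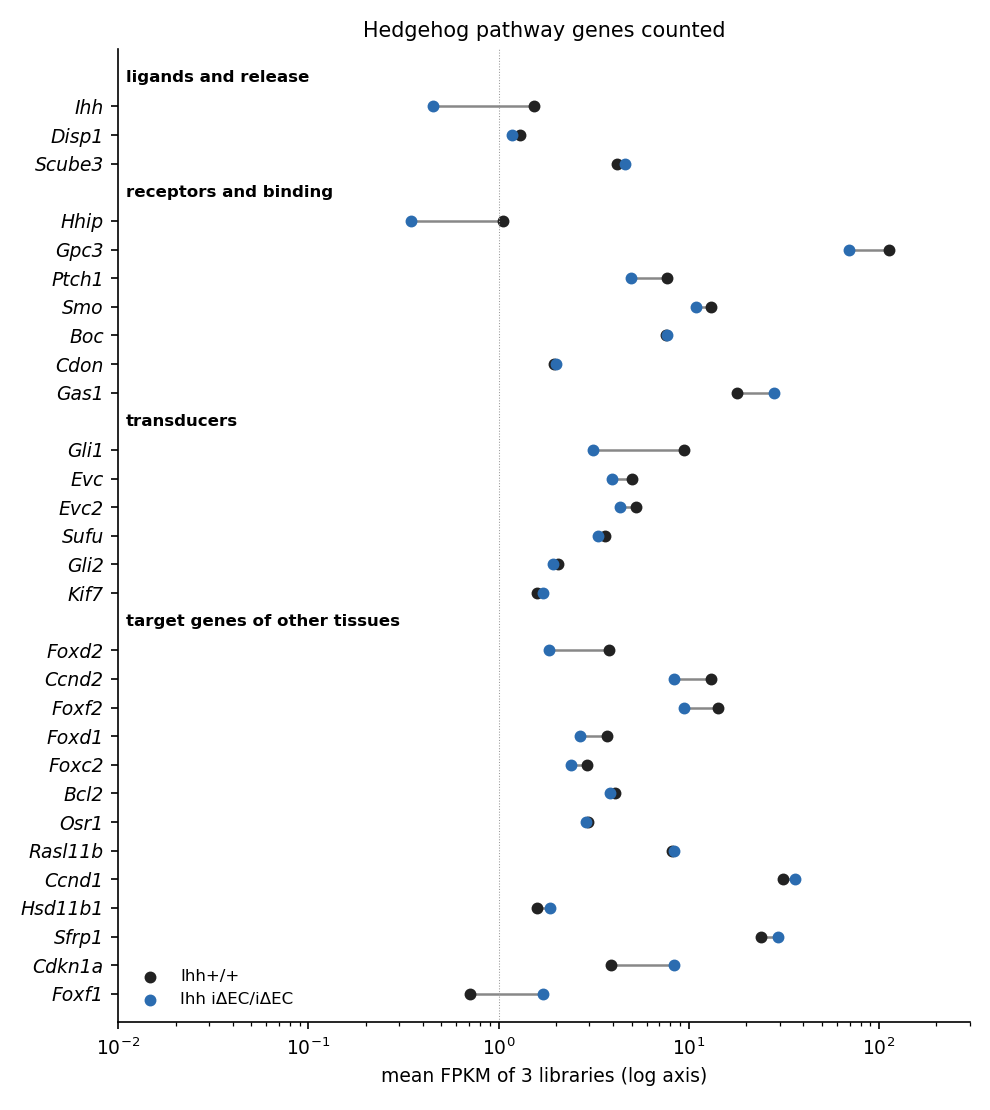
Mean FPKM (log axis) of the 29 counted HH genes in Ihh+/+ (black) and Ihh iΔEC/iΔEC (blue) RPE/choroid, grouped by role, with a dotted line at the floor of 1 FPKM. The widest gaps are those of Ihh, Hhip and Gli1, each about 3-fold, and Foxf1 and Cdkn1a go the other way.

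The study also treated cultured choroidal GLI1+ cells of Gli1 GFP/+ mice with the SMO agonist SAG at 100 nM or with DMSO for 24 h, in 3 libraries each. The labels give the background as SWR/J, and by the study's methods the line had been outcrossed to BALB/c. These cells were sorted from female mice and expanded before treatment. With SAG, 33 of 10312 counted genes (0.32%) were at least 2-fold higher and 120 (1.16%) at least 2-fold lower, again as ratios of group means. Of the 82 genes lower after Ihh deletion 28 were counted there. Of these, 5 were higher with SAG and 0 lower, 17.9% higher, beside 0.268% of all 9691 genes counted in both tables. The median log2 ratio with SAG was 0.04 for the 28 genes and 0.07 for the 9691. Some of the 28 had smaller means with SAG, by less than 2-fold, such as Tnfrsf14 (log2 ratio -0.77), Arsi (-0.63), Fos (-0.55), Jun (-0.46) and Socs3 (-0.43). The 5 were Gli1 (3.65 FPKM with SAG, 0.028 with DMSO), Cxcl14 (49.9 and 12.5), Hhip (1.28 and 0.368), Cpxm1 (45.2 and 20.3) and Mpped2 (2.81 and 1.35). Cxcl14 encodes a chemokine and Cpxm1 a secreted carboxypeptidase-like protein, and after Ihh deletion they stood at 1.18 against 4.11 FPKM and at 8.37 against 18.3 FPKM. Mpped2, although assigned to ECs by its UMIs in the tissue (0.489 against 1.01 FPKM), was present in the cultured GLI1+ cells. Foxd2 was just short of the limit with SAG (1.97-fold), and Ptch1, with a log2 ratio of -0.63 in the tissue, was 8.99-fold higher. Gas1, higher after Ihh deletion, was lower with SAG, at 85.3 FPKM against 164.4 with DMSO. Of the 118 genes higher after Ihh deletion 35 were counted with SAG: 1 was higher (Reln) and 2 were lower (Hist2h3c1, Ppl).

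The changed genes were assigned to cell types by their summed UMIs, a type being named when its level was at least 2 times that of the next. Of the 200 changed genes 86 were given 1 type, and 17 stood in lists of neighbouring tissue and were kept apart. Only listed genes were kept apart. The counts by type still hold photoreceptor genes outside those lists, such as Rtbdn (stromal cells, log2 ratio -1.47), Guca1a (hematopoietic cells, -1.4) and Reep6 (Schwann cells, -1.055). Stromal cells held the most of the lower genes, 14 of the 323 counted genes assigned to them (4.33%), followed by hematopoietic cells with 8 of 378 (2.12%), ECs with 5 of 443 (1.13%) and melanocytes with 4 of 332 (1.2%). In RPE the share was 1 of 563 (0.178%), and of 8267 genes shared between types 18 (0.218%) were lower.

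**Figure D3:**
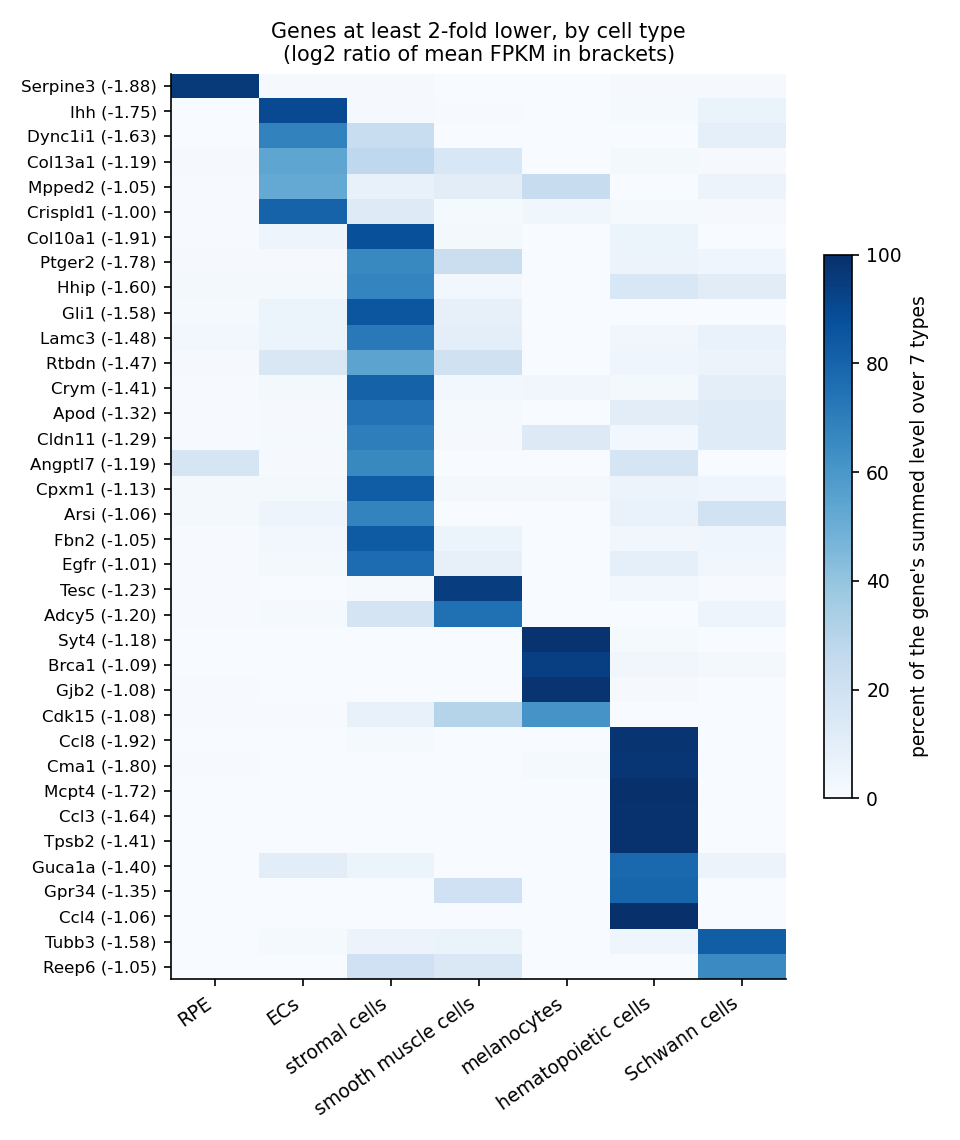
Each row is a gene at least 2-fold lower in Ihh iΔEC/iΔEC tissue and assigned to 1 cell type, with its log2 ratio, and the shade is the share of its summed single-cell level (UMIs per 10,000 in each type, added over 7 types) in each type. The block of stromal rows is the longest, the hematopoietic rows are the most exclusive, and RPE has a single row, Serpine3.

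The 14 lower genes of stromal cells included genes of matrix, of receptors and of junctions. Col10a1, the short-chain collagen of the growth plate, was at 4.90 FPKM in Ihh+/+ and 1.31 FPKM in Ihh iΔEC/iΔEC tissue (3.75-fold), and Lamc3, a laminin chain of basement membranes, at 6.66 and 2.39 FPKM. Ptger2, a receptor for prostaglandin E2, was at 2.31 and 0.672 FPKM. Apod, a lipid carrier and the most abundant of these genes, was at 107.4 and 42.9 FPKM, and Egfr, the receptor of epidermal growth factor, at 4.73 and 2.35 FPKM. Cldn11, a tight junction gene, was at 10.2 and 4.18 FPKM, and Fbn2, a fibrillin, at 1.17 and 0.568 FPKM. These genes did not share 1 stromal cluster: Col10a1 was highest in cluster 6 (1.61 per 10,000 UMIs, 0.369 in cluster 7) and Hhip in cluster 7 (0.32, 0.00254 in cluster 6), while Gli1 was found in all 4, from 0.19 to 0.348. Relative to the median of stromal-enriched genes, Col10a1 (3.01-fold), Ptger2 (2.76), Lamc3 (2.23) and Apod (2.01) stayed past 2-fold. Cldn11 (1.96), Fbn2 (1.66) and Egfr (1.61) did not.

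Of the genes that ECs hold, 5 were lower and 11 higher. Besides Ihh, the lower genes were Dync1i1 (0.458 against 1.42 FPKM), Col13a1 (1.84 against 4.2), a transmembrane collagen, Crispld1 (1.83 against 3.67) and Mpped2. The higher genes included Apold1, an early response gene of ECs (19.4 against 7.02 FPKM), Stc1, a secreted glycoprotein gene (3.15 against 1.11), Tmem252 (2.24 against 0.716) and Cish, a feedback inhibitor of cytokine signalling (9.15 against 4.51). The higher EC genes also included Sfn (5.253 against 1.345 FPKM), with 47 EC UMIs, which stands in the list of stratified epithelium described further on. Of 443 genes assigned to ECs, 2.48% were higher. In smooth muscle cells 2 of 208 genes were lower, Tesc and Adcy5. There 11 (5.29%) were higher, the largest share of the 7 types, beside 1.04% of all genes. This rank depended on the rule: at 5 times the next type 2 of 65 (3.08%) were higher. That was below stromal cells (6.15%), ECs (4.09%) and Schwann cells (3.7%). The 11 included Nr4a2 (4.30 against 0.774 FPKM), Rasd1 (14.7 against 3.54) and Gem (3.01 against 0.645). They also included Optc, with 31 smooth muscle UMIs, which stands in the list of ciliary epithelium described further on. For Slc16a11, also among them, 1 cell of cluster 5 held 23 of the 44 C57BL/6J UMIs. The only lower gene of the RPE, Serpine3, a serpin gene, was at 211.0 FPKM in Ihh+/+ and 57.2 FPKM in Ihh iΔEC/iΔEC tissue (3.69-fold). Its UMIs were at 1.03 per 10,000 in RPE (0.937-1.12) and at most 0.0124 in every other type. Schwann cells held 2 lower genes, Tubb3 and Reep6, and 5 higher genes, Reln, Cldn3, Col9a2, Egr3 and Egr2. Of these, Reep6 and Egr3 rested on 4 Schwann cell UMIs each and Cldn3 on 3, and Cldn3 and Col9a2 also stand in the lists of stratified and of ciliary epithelium described further on. Of the melanocyte genes 2 were higher, Rab17 and Synpr, on 3 and 14 melanocyte UMIs, and 0 were with B6129PF1/J alone. Among the lower melanocyte genes, Brca1 rested on 10 and Cdk15 on 8 such UMIs. Of the hematopoietic genes 3 were higher, Pglyrp1, an antibacterial protein gene (7.96 against 1.30 FPKM), Ctse and Cbr2 (10.1 against 3.39). Higher genes of the RPE included Pcp4 (4.64 against 1.09 FPKM) and Gsta3 (6.6 against 2.8). Cldn7, also among them, rested on 22 RPE UMIs and stands in the list of stratified epithelium. For this gene, 1 cell of cluster 5 held 10 of the 18 C57BL/6J UMIs.

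Genes of mast cell proteases were lower, at levels of 1 to 3 FPKM in Ihh+/+ tissue. Cma1, which encodes a chymase, was at 1.64 FPKM in Ihh+/+ and 0.470 FPKM in Ihh iΔEC/iΔEC tissue (3.49-fold), and Mcpt4, a second chymase gene on the same stretch of chromosome 14, at 1.90 and 0.576 FPKM. The tryptase genes, neighbours on chromosome 17, went the same way, Tpsb2 at 2.34 and 0.883 FPKM and Tpsab1 at 1.07 and 0.309 FPKM, although reads of such close paralogs can be split between them. All 8 counted genes of the mast cell list had a ratio under 1, 4 of them below 0.5, and the median log2 ratio was -1.06. Below the floor, Cpa3, a mast cell carboxypeptidase, was at 0.713 and 0.199 FPKM, and Fcer1a, the chain of the IgE receptor that binds IgE, at 0.103 and 0.0137 FPKM, whereas Hdc, the enzyme of histamine synthesis, was at 0.204 and 0.232 FPKM. With a pseudocount of 1 FPKM, 0 of the 4 differences reached 2-fold. The counted members that other cells also make differed less, such as Kit, the receptor of stem cell factor, with 3.31 and 2.97 FPKM, and Gata2 with 4.13 and 3.66 FPKM.

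The single-cell counts hold few mast cells. Of 233 cells in the hematopoietic cluster 11, 2 had UMIs of at least 2 mast cell genes and of more of them than of macrophage genes, both from the C57BL/6J library, and 190 met the reverse rule for macrophages. The 2 cells held 437 of 442 Cma1 UMIs, 433 of 433 Mcpt4 UMIs and 453 of 454 Tpsb2 UMIs of the cluster, so the assignment of these genes rests on them. The class was defined by such genes, so these counts describe how the cells were chosen.

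Most macrophage genes differed less. Of 15 counted, 1 was lower, Gpr34, a lysophosphatidylserine receptor gene (0.594 against 1.52 FPKM), and the median log2 ratio was -0.24. Csf1r stood at 52.5 FPKM in Ihh iΔEC/iΔEC and 48.0 FPKM in Ihh+/+ tissue and Cd68 at 43.0 and 39.1. Pf4 (3.69 and 5.71), Mrc1 (2.23 and 3.35), Cx3cr1 (1.44 and 2.22) and Cd72 (3.81 and 5.58) had ratios between 0.6 and 0.7. Other members of the list did not, with ratios of 0.83 for C1qa, 1.02 for Trem2, 1.13 for Mertk and 1.81 for Cd14. Of the 15 ratios 10 were under 1 and 5 over 1. Of 15 chemokine genes 4 were lower and 0 higher. Ccl8 was at 0.850 against 3.22 FPKM (3.79-fold), Ccl3 at 0.899 against 2.80 and Ccl4 at 0.8 against 1.66. In cluster 11 the macrophage-like cells held 105 of 105 Ccl8 UMIs and 273 of 278 Ccl3 UMIs, beside 1017685 of all 1153702 UMIs. The class is broad: 91 of its 190 cells had C1qa UMIs. The study divided this cluster into macrophages, dendritic cells, T cells and mast cells. Ccl4 was spread, with 579 UMIs in the macrophage-like cells, 79 in 41 cells of neither class and 6 in the mast cells, or 5.69, 6.13 and 8.38 per 10,000 UMIs. The fourth was Cxcl14, above. Ccl2 (log2 ratio 0.95) and Cxcl1 (0.78), chemokine genes of acute inflammation, were higher by less than 2-fold. The common leukocyte gene Ptprc was even, at 2.59 and 2.63 FPKM. Complement genes were slightly lower in 17 of 18 cases, with a median log2 ratio of -0.28, and the only one past 2-fold was Cfd (0.615 against 3.15 FPKM), the adipsin gene, which was not in the single-cell table.

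Melanocyte genes were lower, by less than 2-fold in most cases. Of 15 counted genes of the marker list 14 had a ratio under 1 and 2 were below 0.5, among them Syt4 (11.9 FPKM in Ihh iΔEC/iΔEC, 26.9 in Ihh+/+), with a median log2 ratio of -0.49. Cort, with 7.65 and 15.1 FPKM, was just short of the limit. Pmel, the fibril protein of the melanosome, was at 280.2 and 515.4 FPKM, Tyrp1 at 255.9 and 461.4 FPKM and Dct at 445.2 and 677.8 FPKM, the last 2 being enzymes of melanin synthesis. Other pigment genes were nearly even: Tyr, the rate-limiting enzyme of melanin synthesis, was at 43.6 FPKM in both genotypes, Oca2 at 35.8 and 36.6 and Gpnmb at 190.2 and 190.7. The RPE also makes pigment. Its level relative to that of melanocytes was high for Tyr (1.32 in RPE and 7.53 in melanocytes per 10,000 UMIs) and Oca2 (0.548 and 0.831), and low for Pmel (0.807 and 119.0) and Syt4 (0.00843 and 14.4). RPE levels are given for these genes only, and the part of RPE transcripts in the tissue ratios was not tested. Gjb2, a gap junction gene with UMIs almost only in melanocytes (5.35), was lower as well (18.6 against 39.4 FPKM). Relative to the median of melanocyte-enriched genes, Syt4 was 1.61-fold and Gjb2 1.51-fold lower, so neither stayed past 2-fold.

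Of 14 counted growth factor genes on which mast cells, melanocytes and macrophages depend, 0 were lower. Edn3, the endothelin that maintains melanocytes, came closest to 2-fold, at 54.1 FPKM in Ihh iΔEC/iΔEC and 104.4 FPKM in Ihh+/+ tissue (log2 ratio -0.95), and was made by stromal cells (14.5 per 10,000 UMIs, 1.35 in the next type). Kitl, which encodes stem cell factor, the ligand of Kit, was at 9.42 and 15.9 FPKM (-0.76), with UMIs in smooth muscle cells (3.13) and stromal cells (2.23). Csf1 (-0.33) and Il34 (-0.12), the ligands of Csf1r, differed less.

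To describe whole cell types, genes whose level in 1 type was at least 5 times that in every other were pooled. Genes enriched in melanocytes had the lowest median log2 ratio, -0.49, with 65 of 67 under 1, and those of stromal cells followed with -0.32 and 100 of 123. ECs were at -0.14 with 121 of 165. Hematopoietic cells (-0.08), Schwann cells (-0.01) and smooth muscle cells (0.02) lay near the median of all 11193 genes whose 2 means averaged 1 FPKM or more, -0.04, of which 59.4% were under 1. RPE genes lay on the other side: 23 of 259 were under 1 and the median was 0.26. The medians of marker lists were -0.59 for 12 stromal genes, -0.49 for 15 melanocyte genes and -0.12 for 11 Schwann cell genes. They were -0.09 for 6 smooth muscle genes, -0.02 for 7 hematopoietic genes and 0.29 for 10 RPE genes. Stromal genes were lowest among these lists. Of the lists given above, that of mast cells was lower still (-1.06), and those of ECs (-0.26) and macrophages (-0.24) were not. Rpe65, the isomerase of the visual cycle, was at 914.2 FPKM in Ihh iΔEC/iΔEC and 682.2 FPKM in Ihh+/+ tissue, whereas Lum, a proteoglycan of fibrous matrix, was at 38.7 and 74.0 and Col1a1 at 55.1 and 95.5. In the same list the pericyte genes Cspg4 (log2 ratio 0.05), Kcnj8 (-0.04), Pdgfrb (-0.27) and Rgs5 (-0.28) and the matrix gene Dpt (-0.05) differed less. FPKM is a share of the library, and in bulk tissue fewer cells of a type and less RNA per cell cannot be told apart. Skeletal muscle genes, which belong to the muscles outside the globe, were higher in all 12 counted cases (median 0.44), and the genes of sclera, cartilage and tendon lower in all 5 (-0.64, Comp past 2-fold).

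**Figure D4:**
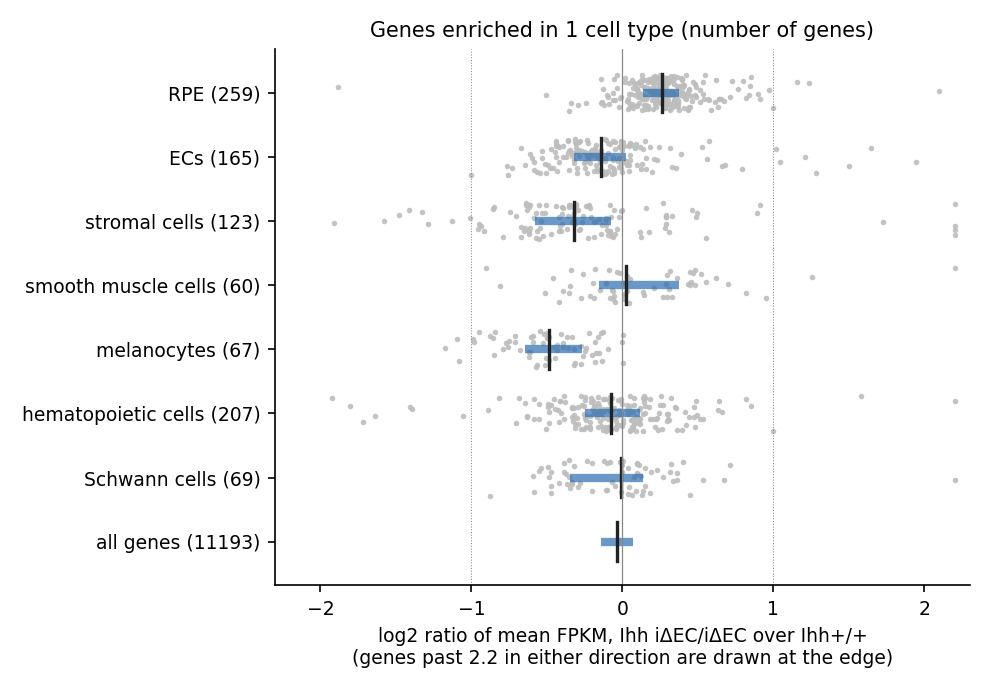
Log2 ratio of mean FPKM for genes enriched at least 5-fold in 1 cell type (grey points), with the median (black line) and the middle 50% of genes (blue bar). The median lies at -0.49 in melanocytes and 0.26 in RPE, and at -0.04 over the 11193 genes whose 2 means averaged 1 FPKM or more.

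Many of the largest differences were in genes of tissues that the dissection was meant to remove. Of 11 counted rod genes 10 were lower, with a median log2 ratio of -1.24: Gnat1 was at 10.8 FPKM in Ihh iΔEC/iΔEC and 25.5 FPKM in Ihh+/+ tissue and Prph2 at 2.03 and 7.23. The exception was Rom1 (64.7 and 62.6), which the single cells place in the RPE (2.88 per 10,000 UMIs). Of 3 counted cone genes 0 were lower, with log2 ratios of -0.04 (Gnat2), 0.15 (Gngt2) and 0.53 (Pde6c). The single cells place Gnat2 and Pde6c in the RPE as well. Below the floor, cone genes had smaller means in Ihh iΔEC/iΔEC tissue. These were the opsin genes Opn1sw (0.0477 and 0.310 FPKM) and Opn1mw (0.096 and 0.467), Arr3 (0.121 and 0.475) and Pde6h (0.063 and 0.7). Cnga3, also below the floor, was at 0.006 FPKM in both genotypes. Conversely, 5 of 6 genes of cornea and conjunctiva were higher. Krt12, the keratin of the corneal epithelium, was at 16.4 against 0.861 FPKM, Krt15 at 31.0 against 0.148, and Krt14 at 4.28 against 0.00667, the largest ratio of all genes (642-fold), whose size depends on a mean near 0. These 15 rod and corneal genes were kept apart from the cell type counts. Whether the amount of such tissue went with the genotype or with single mice cannot be told apart in group means.

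Further lists were put together after the values had been seen, and are given as descriptions only. Of 21 counted genes of stratified epithelium, 4 of which are also in the corneal list, 18 were higher, such as Cldn4 (3.27 against 0.0127 FPKM). Of 17 genes of the ciliary body and iris 11 were higher, such as the eye transcription factor Pax6 (5.62 against 0.570 FPKM), Optc (10.2 against 0.318) and Best2 (1.89 against 0.03). The 15 largest falls of the table were Fosb, Prb1, Gm4736, Prpmp5, Cfd, LOC102308570, Ccl8, Bpifb1, Col10a1, Serpine3, Derl3, Prph2, Cxcl14, Mcm6 and Cma1. Of 5 genes of lacrimal and salivary glands 4 were lower, with Prb1 at 8.04 against 55.6 FPKM and Bpifb1 at 2.47 against 9.31. Of the 15 genes with the largest rises 12 were outside the single-cell table, and the 15 included Krt14, Cldn4, Krt15, Fgfbp1, Aqp3, Krt17, Krt16, Best2, Crhbp, Slc26a4, Dsc2, Lypd3, Calml3 and Gm9573. Without the genes of the fixed and the later lists, 66 genes were lower (0.584%) and 88 higher (0.778%).

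A number of these genes carried a stromal label through a single cell. In the C57BL/6J library, 1 cell of cluster 5 with 15926 UMIs held more than 50% of the library's UMIs of 17 of the higher genes, 9 of which had been assigned to stromal cells, among them Calml3 (100 of 102 UMIs), Asprv1 (157 of 162) and Plet1 (107 of 111). The same cell held 1945 of the 2338 UMIs of Gsto1, an omega-class glutathione transferase gene. Gsto1 was the most abundant of the higher genes, with 98.8 FPKM in Ihh iΔEC/iΔEC and 10.0 FPKM in Ihh+/+ tissue. In the B6129PF1/J library the 12 higher genes assigned to stromal cells had 74 UMIs in such cells, against 904 in C57BL/6J, and 6 of them had none. The 14 lower genes of stromal cells did not behave so, with 11030 and 9081 UMIs and no gene with most of its UMIs in 1 cell.

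**Figure D5:**
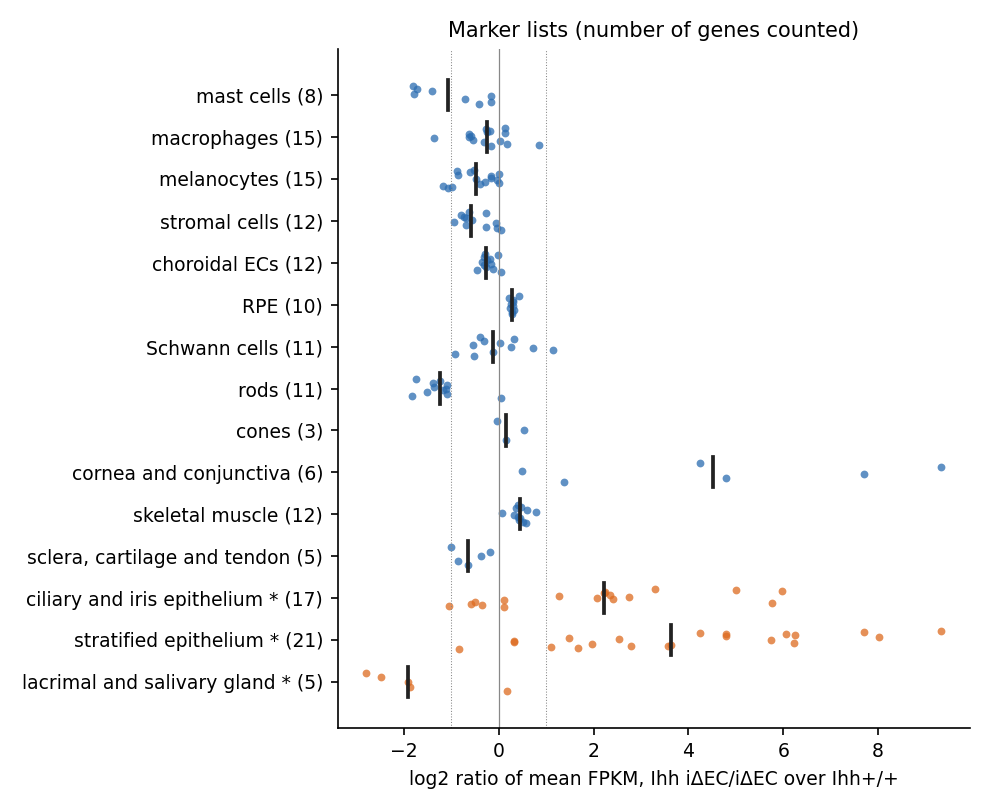
Log2 ratio of mean FPKM for each counted member of marker lists (points), with the list median (black line) and dotted lines at 2-fold. Lists in orange with an asterisk were put together after the values had been seen. Mast cell, rod and gland genes lie to the left, and genes of cornea, conjunctiva, ciliary body and stratified epithelium to the right.

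The transcripts of sex chromosomes differed between the means as well. Xist, made by the inactive X chromosome of females, was at 13.6 FPKM in Ihh iΔEC/iΔEC and 6.18 FPKM in Ihh+/+ tissue, and the 4 Y-linked genes measured were all lower in Ihh iΔEC/iΔEC tissue, from Eif2s3y (log2 ratio -0.66) to Kdm5d (-1). The sex of each mouse was not used here, and the part of sex in the other ratios was not tested.

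Immediate-early genes, which respond within minutes to many stimuli, differed in both directions. Of 24 counted genes 4 were lower and 5 higher. Fosb was at 2.27 against 19.6 FPKM, the largest fall of the table (log2 ratio -3.11), Fos at 32.2 against 102.0, Jun at 18.7 against 62.3 and Socs3 at 4.80 against 16.2. In contrast, Fosl2 (9.76 against 2.07 FPKM), Egr3 (2.43 against 0.518), Atf3 (8.24 against 3.39), Btg2 (22.4 against 9.34) and Egr2 (1.61 against 0.728) were higher, and Egr1 (111.5 against 102.5) and Dusp1 (49.1 against 45.1) were nearly even. In the dissociated single cells Fos was at 58.1 per 10,000 UMIs in stromal cells and 81.5 in Schwann cells. Of 13 counted clock genes only Per1 was changed (27.3 against 10.1 FPKM), and of 27 interferon-stimulated genes only Gm14446 (4.13 against 0.296 FPKM), with Ifi202b, below the floor, at 0.723 against 0.021 FPKM. Of 8 counted cell cycle genes 1 was lower, Mcm6, a subunit of the replicative helicase (1.12 against 3.91 FPKM), while its partner subunits Mcm2 to Mcm5 and Mcm7 had log2 ratios between -0.41 and -0.09. Of 8 counted genes of retinal gliosis and damage 1 was lower, Socs3, while Gfap was at 13.3 against 12.7 FPKM and Cebpd at 27.9 against 15.7 FPKM.

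Genes near Ihh were examined because a floxed allele brings along its flanking chromosome. Within 5 Mb of Ihh 49 other genes were counted, and 1 was changed, Wdfy1 (5.19 against 2.57 FPKM), which lies 4.76 Mb away. Within 25 Mb 5 of 201 were changed (2.49%), beside 1.76% of all counted genes. Wdfy1 also differed between the 2 single-cell strains, with a level in B6129PF1/J 2.43 times that in C57BL/6J when compared within cell types, and so did Hddc3 on chromosome 7 (27.0 against 9.95 FPKM after Ihh deletion, 2.90 times in the strains). Of 92 changed genes with at least 100 UMIs 14 (15.2%) differed at least 2-fold between the 2 single-cell libraries, beside 88 of 9926 (0.887%) among all genes with as many UMIs, and these 14 include the 3 mast cell genes and the 5 genes held by the single cluster 5 cell. Each strain had 1 library, so these are values of libraries, and their part in the Ihh comparison was not tested.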

How the data were processed

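The authors aligned the bulk reads to mm10 with STAR 2.4.0f1 and computed FPKM with Cufflinks 2.0.2 (SAMtools 0.1.19), according to the study's methods and the submitters' processing notes, and deposited 1 mean FPKM per group of 3 libraries. Columns with the authors' own log2 fold changes and adjusted p-values were not used. The scRNAseq UMI counts were deposited by the authors per gene and cell with 13 cluster labels (Cell Ranger, Seurat 2.1), for 3637 B6129PF1/J and 3928 C57BL/6J cells with 17168578 and 15230413 UMIs, 1 library per strain from 1 male and 1 female. 22 cell barcodes occur in both. No doublets were removed here.

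Ratios of the deposited means were formed at a floor of 1 FPKM and called at 2-fold. No test was planned or run, since the expression values in the tables are group means. They give no depth either, and how precise a low FPKM is remains unknown. UMIs were summed per cell type over both libraries and given per 10,000 with exact Poisson 95% intervals, which cover counting error only. A gene was assigned to the type with the highest level when this was at least 2 times the next, with 3 UMIs there and 10 in all. It was called enriched at 5 times every other type with 10 UMIs. Strain ratios were weighted within cell types. Coordinates are GENCODE M21 (GRCm38). Named genes were all counted HH genes, the 15 largest ratios in each direction, 2-fold members and the 2 most abundant members of each list, and up to 5 changed genes per cell type, and other members of these lists were named after their values were seen. The members and lists were chosen with earlier results of these data known, and 3 lists and the comparisons of single cells and strains were added after the values were seen. Alternatives were other floors, pseudocounts, scalings, fold limits, single strains and dominance rules. The scripts were tested on simulated data (Python 3.11.15, numpy 2.4.6, pandas 2.3.3, scipy 1.17.1, matplotlib 3.10.9). A few members of these lists are not reported here.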

Additional observations from a re-analysis of the deposited data

How the results depend on the processing

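No paired analysis was possible because only group means were analysed and the labels of the mice share no numbers, and for the same reason no library could be left out. The 82 lower and 118 higher genes became 629 and 698 with no floor on FPKM, 27 and 33 at 5 FPKM in the higher group, 33 and 65 with a pseudocount of 1 FPKM, and 285 and 239 at 1.5-fold. These changes follow from how many genes each rule admits. Dividing by the median ratio (0.975) kept 77 of the lower and all 118 higher genes. Relative to the median of their cell type, 73 of the 89 changed genes with such a value stayed past 2-fold. With a pseudocount of 1 FPKM, the lower genes went from 4 to 1 in the HH lists, from 4 to 0 among mast cell genes, from 2 to 1 among melanocyte genes and from 10 to 5 among rod genes. At 1.5-fold there were 8 lower HH genes and 6 lower melanocyte genes. Of 86 genes with a cell type, 53 kept one at 5 times the next type. This left 9 of 14 lower genes in stromal cells, 7 of 11 higher genes in ECs and 2 of 11 in smooth muscle cells. The 12 higher genes assigned to stromal cells became 2 with B6129PF1/J alone and 3 when Poisson limits had to be apart, and a single cell held most UMIs of 9 of them. The share of EC-enriched genes under a ratio of 1 was 73.3%, and 64.2% after division by the median ratio, and that of melanocyte-enriched genes 97%, and 100.0% with C57BL/6J alone. Near Ihh, 1 gene was changed within 5 Mb and 5 within 25 Mb. Alternatives for lists, neighbouring tissue, distance and SAG were added after the data had been seen.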

Other observations

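The choroidal EC signature genes that the study lists were changed in both directions after Ihh deletion. Of 83 counted, 7 (8.43%, beside 0.72% of all genes) were lower (Cldn11, Col10a1, Crispld1, Fbn2, Gli1, Ihh and Serpine3) and 5 (6.02%, beside 1.04%) higher (Fosl2, Nr4a2, Penk, Rasd1 and Stc1), with a median log2 ratio of -0.01. Of the 7, only Ihh and Crispld1 had their UMIs mostly in ECs, Serpine3 had them in RPE and the other 4 in stromal cells. Penk, the proenkephalin gene, was at 23.3 against 7.43 FPKM.

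Schwann cell genes of the marker list went both ways. Cdh19, a cadherin of Schwann cell precursors and non-myelinating cells, was at 3.11 FPKM in Ihh iΔEC/iΔEC and 5.89 FPKM in Ihh+/+ tissue, and S100b at 106.4 and 152.6 FPKM, a gene that melanocytes also hold (34.8 per 10,000 UMIs, 9.89 in Schwann cells). The myelin genes Mal (9.29 and 5.67 FPKM) and Mbp (17.6 and 14.2 FPKM) were higher.

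Genes listed at 0 in Ihh+/+ tissue and at 1 FPKM or more in Ihh iΔEC/iΔEC tissue were Rbp2 (2.16 FPKM), Defb9 (1.38 FPKM) and Alox12e (3.23 FPKM), with no gene the other way once short noncoding RNAs were left out.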
